A study of Mus musculus with 7 samples.

Results

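Alternative activation is the state that macrophages take up when interleukin-4 or interleukin-13 binds a receptor built around the chain encoded by Il4ra. The receptor's kinases phosphorylate the transcription factor STAT6, which enters the nucleus and switches on genes such as Retnla, Chil3, Ear2, Tgm2, Pdcd1lg2, Egr2, Ccl17 and Ccl22. In mice these genes are classical markers of the response to worms and of tissue repair, and macrophages of the gut muscle layer are known for an anti-inflammatory, tissue-protective profile. The 10 genes named here were taken by their symbol from the deposited gene table, which held rows for all 10 of them among 17209 genes.

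The study took the peeled muscle layer of the mouse small intestine, sorted CX3CR1-GFP+ cells from it and sequenced their RNA. The libraries pMCAO 1 to pMCAO 3 (n = 3) came from mice taken 24 h after the operation labelled pMCAO, an experimental stroke, and Sham 1 to Sham 4 (n = 4) from mice taken 24 h after a sham operation. Both groups are labelled C57BL6/J, were sorted by the same reporter, and have no age in the labels. The label of pMCAO 3 names a pool and no label ties any library to a single animal, so each p-value reflects the spread among these libraries alone, and part of that spread may be technical.

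Counts assigned to the listed genes ranged from 12685941 to 21680302 in pMCAO libraries and from 18873893 to 34432716 in Sham libraries. The 12 macrophage markers, Cx3cr1 and Csf1r among them, summed to 13441 to 19338 CPM in pMCAO libraries and 19249 to 25751 CPM in Sham libraries (CPM, counts scaled to library size with TMM factors), so the labelled cell type showed its markers in all 7. The mitochondrial ribosomal RNA gene mt-Rnr2 took 5.85% to 9.22% of the counts of pMCAO libraries and 1.77% to 3.96% of those of Sham libraries. The 7 fibroblast markers summed to 104 to 532 CPM in pMCAO libraries and 52.9 to 163 CPM in Sham libraries. The part of these differences in the results below was not tested, and in bulk RNA fewer cells of a type and less RNA per cell cannot be told apart.

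The promoters of 4 genes are shown as examples: Retnla and Ear2 varied together between libraries, Chil3 had the largest difference between the groups among the 10, and Pdcd1lg2 is the lowest expressed. The promoter of Il4ra, the only gene of the 10 whose groups did not overlap, is not shown. Each line gives the 250 bases before the RefSeq transcription start, 5′ to 3′ on the gene's strand, in GRCm38.p6, with capitals where TTC and GAA stand 4 bases apart (the spacing that STAT6 prefers) or 3 bases apart (a spacing shared by STAT factors).
Retnla, chr16:48842359-48842608, plus strand: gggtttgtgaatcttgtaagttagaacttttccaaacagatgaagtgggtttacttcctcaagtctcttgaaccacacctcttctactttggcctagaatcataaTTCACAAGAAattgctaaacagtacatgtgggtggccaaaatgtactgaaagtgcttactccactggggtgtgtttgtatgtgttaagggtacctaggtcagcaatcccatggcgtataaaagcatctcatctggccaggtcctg
Ear2, chr14:44102404-44102653, plus strand: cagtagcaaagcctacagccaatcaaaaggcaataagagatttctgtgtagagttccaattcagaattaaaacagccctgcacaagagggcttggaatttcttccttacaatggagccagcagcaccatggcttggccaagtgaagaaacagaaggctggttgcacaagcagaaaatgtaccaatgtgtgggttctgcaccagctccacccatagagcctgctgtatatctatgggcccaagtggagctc
Chil3, chr3:106167565-106167814, minus strand: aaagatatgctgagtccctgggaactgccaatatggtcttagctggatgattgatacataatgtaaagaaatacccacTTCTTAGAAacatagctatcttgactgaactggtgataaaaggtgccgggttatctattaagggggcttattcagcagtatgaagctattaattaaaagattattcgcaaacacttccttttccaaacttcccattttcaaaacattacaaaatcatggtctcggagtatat
Pdcd1lg2, chr19:29410669-29410918, plus strand: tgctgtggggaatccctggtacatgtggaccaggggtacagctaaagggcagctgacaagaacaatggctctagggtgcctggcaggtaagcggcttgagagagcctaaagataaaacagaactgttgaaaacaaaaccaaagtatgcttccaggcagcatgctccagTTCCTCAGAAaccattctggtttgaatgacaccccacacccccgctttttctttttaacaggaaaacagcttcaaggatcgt

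Both motifs read the same on either strand, and the windows searched ran from 250 bases before to 50 after each start. The motif with 4 bases between was found for 3 of the 9 genes with a window (Retnla, Pdcd1lg2 and Ccl17), against 8.01% of all 27025 genes and 6.95% of all 32851 windows, of which a gene can have several. The motif with 3 bases between was found for 2 of the 9 (Chil3 and Ccl17), against 9.55% of all genes and 8.3% of all windows. Il4ra, Ear2, Egr2, Stat6 and Ccl22 had neither motif, and Tgm2 was not searched. The Retnla match, TTCACAAGAA, began 145 bases before the start, and the Pdcd1lg2 match, TTCCTCAGAA, 82 bases before it. The Ccl17 window held TTCTCTGGAA and TTCTTTGAA, at 154 and 99 bases before the start, which do not overlap. The Chil3 match, TTCTTAGAA, lay 172 bases before the start. These matches describe the letters of the windows and are not evidence of binding.

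No gene of the 10 passed the test over all genes, while 17 of 17209 genes did (0.0988%), 12 of them higher (0.0697%) and 5 lower (0.0291%) in pMCAO libraries. Il4ra was lower in every pMCAO library than in every Sham library, at 0.595 times the Sham level in the fit, and was the only one of the 10 whose groups did not overlap. All pMCAO libraries lay below all Sham libraries for 6.58% of all genes, and above them for 5.99% of all genes and for 0 of the 10. At an unadjusted p under 0.05, 3 of the 10 (Il4ra lower, Chil3 and Tgm2 higher) stood against 13.4% of all genes. The median log2 change, pMCAO minus Sham, was -0.10 over the 10 genes and -0.02 over all genes, with 4 of the 10 higher and 6 lower in the fit. Several of the 10 genes, Retnla, Ear2 and Chil3 most, varied widely between libraries of one group, while Stat6 and Il4ra did not. The SD of log2 CPM had a median of 0.78 over the 10 genes among pMCAO libraries, against 0.43 over all genes, and of 0.55 among Sham libraries, against 0.35 over all genes. These medians are descriptions and were not tested.

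**Figure D1:**
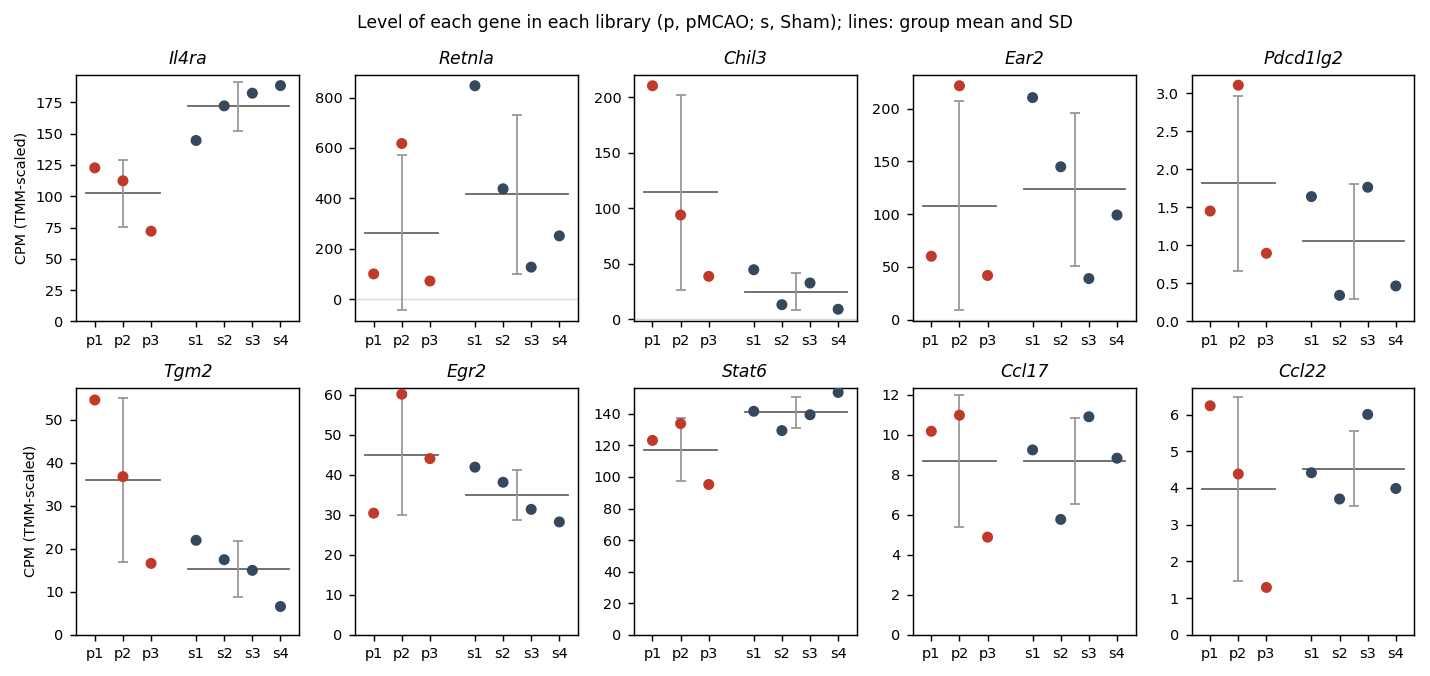
TMM-scaled CPM (vertical axes, linear) of each of the 10 genes in pMCAO 1 to 3 (p1 to p3, red) and Sham 1 to 4 (s1 to s4, dark), with the group mean as a horizontal line and the SD as a bar. Only the Il4ra panel shows groups that do not overlap, and Retnla and Ear2 are high in pMCAO 2 and Sham 1.

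Per kilobase of exon, Retnla was the most abundant of the 10, with a mean level of 440 ± 513 CPM per kb in pMCAO libraries and 694 ± 525 CPM per kb in Sham libraries (SD, n = 3 and n = 4, as for all levels per kb). Ear2 was next, at 150 ± 138 CPM per kb in pMCAO libraries and 172 ± 101 in Sham libraries. Chil3 followed Ear2 in pMCAO libraries, at 70.1 ± 53.8 CPM per kb, but stood below Stat6, Il4ra and Ccl17 in Sham libraries, at 15.1 ± 10.3 CPM per kb. Stat6 was at 26.7 ± 4.53 CPM per kb in pMCAO libraries and 32.0 ± 2.25 in Sham libraries, and Il4ra was at 17.1 ± 4.45 in pMCAO libraries and 28.6 ± 3.23 in Sham libraries. Ccl17 was at 16.9 ± 6.44 CPM per kb in pMCAO libraries and 16.9 ± 4.16 in Sham libraries, Egr2 at 13.2 ± 4.38 in pMCAO libraries and 10.3 ± 1.84 in Sham libraries, and Tgm2 at 7.81 ± 4.13 in pMCAO libraries and 3.31 ± 1.40 in Sham libraries. The lowest were Ccl22, at 1.71 ± 1.08 CPM per kb in pMCAO libraries and 1.95 ± 0.442 in Sham libraries, and Pdcd1lg2, at 0.928 ± 0.586 in pMCAO libraries and 0.538 ± 0.384 in Sham libraries. The ranges of Stat6 and Il4ra did not overlap among pMCAO libraries. Among Sham libraries the neighbours Retnla and Ear2 overlapped in range, as did Stat6 and Il4ra, Ccl17, Chil3 and Egr2, and Tgm2 and Ccl22. Going down the order of means, Sham ranges did not overlap between Ear2 and Stat6, Il4ra and Ccl17, Egr2 and Tgm2, or Ccl22 and Pdcd1lg2. These are neighbours only, and Chil3 and Il4ra did overlap. In Sham 1 Chil3 was at 27.3 CPM per kb, its highest Sham value, and Il4ra at 24.1, its lowest.

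Il4ra (ENSMUSG00000030748, chromosome 7, 125552120 to 125579474 of GRCm38) encodes the alpha chain shared by both interleukin-4 receptor types. It was at 123, 112 and 72.1 CPM in pMCAO 1 to 3, against 145, 172, 182 and 188 CPM in Sham 1 to 4. The highest pMCAO value lay below the lowest Sham value, and pMCAO 3 was the lowest of all. The log2 change was -0.75 (SE 0.20) with an adjusted p = 0.146 from edgeR's quasi-likelihood F test, which gave all adjusted p-values unless another source is named. With DESeq2 Il4ra passed (log2 change -0.73, adjusted p = 0.0354), as it did with limma-voom and sample quality weights (-0.68, adjusted p = 0.0367), but not with limma-voom without those weights (-0.79, adjusted p = 0.120). An antisense gene, Gm44876, overlaps 9.51% of its exon length and is not analysed here.

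Stat6 (ENSMUSG00000002147, chromosome 10, 127642986 to 127660957), the transcription factor that the receptor activates, varied little. It was at 123, 134 and 95.2 CPM in pMCAO 1 to 3, against 142, 129, 139 and 154 CPM in Sham 1 to 4. Only 4.18% of all genes had a smaller SD of log2 CPM among Sham libraries. The groups overlapped through pMCAO 2 and Sham 2, and the log2 change of -0.26 (SE 0.17, adjusted p = 0.528) did not pass. Egr2 (ENSMUSG00000037868, chromosome 10, 67535475 to 67542188), a zinc finger factor that STAT6 induces and that carries the response on to later genes, was at 30.4, 60.2 and 44.1 CPM in pMCAO 1 to 3, against 41.9, 38.2, 31.4 and 28.2 CPM in Sham 1 to 4. The values in pMCAO 2 and pMCAO 3 were above the Sham range and that in pMCAO 1 was within it, with a log2 change of 0.36 (SE 0.25, adjusted p = 0.550).

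The other components of interleukin-4 and interleukin-13 signalling moved in no single direction. Of a list of 18 genes that leaves out Il4ra and Stat6, 15 were measured and 0 rose or fell, against 0.0988% of all genes. Their median log2 change was 0.10, against -0.02 over all genes. The smallest p-values were those of Ptpn6, which encodes the phosphatase SHP-1 (log2 change -0.45, SE 0.18, adjusted p = 0.309), the kinase Jak3 (-0.66, SE 0.30, adjusted p = 0.362) and the STAT inhibitor Pias1 (0.34, SE 0.16, adjusted p = 0.362). Tyk2 (-0.42) and Jak2 (0.30), kinases of receptors of this class, followed with adjusted p of 0.473 and 0.4995. Jak3, the kinase that pairs with the common gamma chain, was at 11.7, 11.3 and 8.86 CPM in pMCAO 1 to 3, against 11.8, 18.8, 17.1 and 19.6 CPM in Sham 1 to 4. It was the 1 gene of the 15 that lay, by a small margin, below all Sham libraries, against 6.58% of all genes. Pias1 was the 1 gene of the 15 that lay above all Sham libraries, against 5.99% of all genes. The transcript of the ligand interleukin-4 (Il4) was at 1.28, 1.08 and 1.23 CPM in pMCAO libraries, against 1.08, 5.08, 1.06 and 3.41 CPM in Sham libraries, and was added here after its value was seen. Il13, Il13ra2 and Socs1 are not analysed here.

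Retnla and Ear2 differed widely between single libraries of each group. Both were high in pMCAO 2 and low in pMCAO 1 and pMCAO 3, and both were high in Sham 1 and low in Sham 3. Retnla (ENSMUSG00000061100, chromosome 16, 48842551 to 48844461) encodes RELM-alpha, a secreted protein of worm immunity and wound repair whose promoter is shown above. It was at 100 CPM in pMCAO 1, 618 CPM in pMCAO 2 and 72.4 CPM in pMCAO 3, against 847, 438, 127 and 251 CPM in Sham 1 to 4. The values in pMCAO 1 and pMCAO 3 lay below all Sham libraries, and that in pMCAO 2 lay above all of them but Sham 1. Counting error does not span these gaps: the exact Poisson 95% intervals were 94.8 to 106 CPM in pMCAO 1, 607 to 628 CPM in pMCAO 2 and 68.5 to 76.4 CPM in pMCAO 3, and they cover counting error only. On the log2 scale pMCAO 2 exceeded pMCAO 1 by 2.61 and pMCAO 3 by 3.08. The SD of log2 CPM among pMCAO libraries was 1.66, larger than in 98.9% of all genes, and among Sham libraries 1.16, larger than in 97.5%.

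For Retnla the log2 change was -0.66 (SE 1.04, adjusted p = 0.836). It was -2.27 (SE 0.85, adjusted p = 0.255) without pMCAO 2 and -0.05 (SE 1.04, adjusted p = 0.988) without Sham 1, so leaving out 1 library of either group moved it. The authors' deposited table gives Retnla a log2 fold change of -2.38 with an FDR of 0.0306, which places it among the 14 genes (0.0814% of 17209) called there, 10 of them lower (0.0581%) and 4 higher (0.0232%) after pMCAO. No other gene of the 10 passed in that table. The design behind that value is not given in the sources used here.

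Ear2 (ENSMUSG00000072596, chromosome 14, 44102654 to 44103534), a ribonuclease first described in eosinophils and also made by alternatively activated macrophages, was at 60.2 CPM in pMCAO 1, 222 CPM in pMCAO 2 and 41.9 CPM in pMCAO 3, against 211, 145, 39.0 and 99.2 CPM in Sham 1 to 4. The order of the Sham libraries was that of Retnla. The log2 change was -0.19 (SE 0.78, adjusted p = 0.943), and -1.28 (SE 0.62, adjusted p = 0.337) without pMCAO 2. The authors' deposited table gives -1.56 with an FDR of 0.163. Ear2 was the gene whose pattern over the 7 libraries was most like that of Retnla among 11588 genes of at least 5 CPM, with a root mean square difference of 0.43 in centred log2 CPM. The ratio of Retnla to Ear2 was 1.67, 2.79 and 1.73 in pMCAO 1 to 3, against 4.02, 3.02, 3.27 and 2.53 in Sham 1 to 4. This ratio varied 2.41-fold over the 7 libraries, while Retnla alone varied 8.53-fold among the pMCAO libraries.

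**Figure D2:**
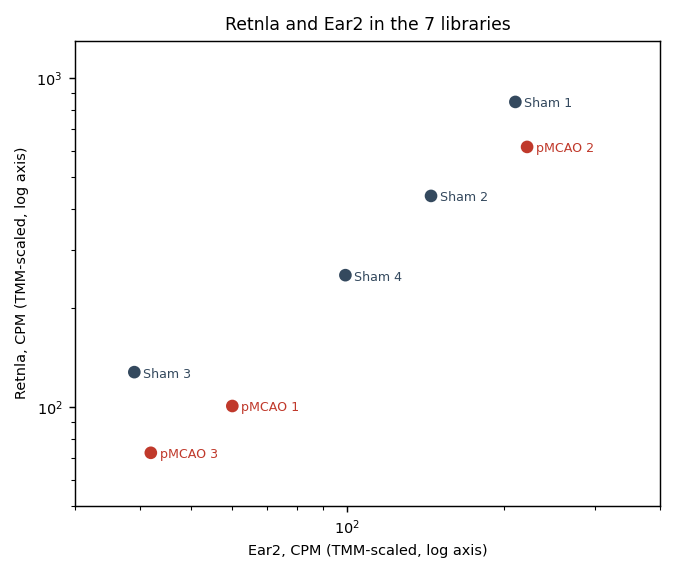
Ear2 (horizontal) against Retnla (vertical), both in TMM-scaled CPM on log axes, with 1 point for each of the 3 pMCAO (red) and 4 Sham (dark) libraries. The library pMCAO 2, at 222 CPM of Ear2 and 618 CPM of Retnla, lies beside Sham 1, and pMCAO 1 and pMCAO 3 lie at the low end with Sham 3.

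The next genes most like Retnla were the class II chaperone gene H2-DMb2 (0.49) and the T cell receptor constant gene Trbc1 (0.50), and those most like Ear2 were Ifitm6 (0.30), the T cell receptor constant gene Trac (0.33) and Trbc1 (0.37), in the same measure. Trac was at 4.53, 14.8 and 2.36 CPM in pMCAO 1 to 3, against 11.9, 9.38, 3.58 and 4.26 CPM in Sham 1 to 4. It was highest in pMCAO 2 and lowest in pMCAO 3, and Sham 1 and Sham 2 were its high Sham libraries, as for Retnla. Markers of other cells moved with these libraries in part. Of 8 adipocyte markers 2 were measured, Fabp4 and Cfd, and their sum was 251, 615 and 131 CPM in pMCAO 1 to 3 and 62.2 to 188 CPM in Sham libraries, while Adipoq, Plin1, Lep, Cidec, Retn and Slc36a2 are not analysed here. Of 9 markers of large peritoneal macrophages 8 were measured (all but Gata6). They summed to 101, 153 and 73.2 CPM in pMCAO 1 to 3, against 63.1, 67.8, 59.3 and 49.3 CPM in Sham 1 to 4. All pMCAO sums thus lay above all Sham sums, which was not so for Retnla or Ear2. Of the 8 markers 6 were highest of the pMCAO libraries in pMCAO 2, while Icam2 and Ltbp1 were lowest there. The 5 monocyte markers other than Chil3 summed to 1033, 1058 and 575 CPM in pMCAO 1 to 3 and 1403, 686, 546 and 593 CPM in Sham 1 to 4. The 7 T cell markers summed to 141, 164 and 129 CPM in pMCAO 1 to 3, against 165, 201, 159 and 160 CPM in Sham 1 to 4. Without Cd4, the largest part of that sum, the other 6 summed to 53.9, 80.5 and 50.8 CPM in pMCAO 1 to 3, against 93.8, 57.2, 24.97 and 28.1 CPM in Sham 1 to 4, a sum taken after the values were seen. Within each group its order of libraries was that of Retnla, which was not so for the sum with Cd4. The single markers differed in this. Cd3e (0.855, 0.801 and 2.97 CPM in pMCAO 1 to 3) and Cd8a (9.31, 4.43 and 9.08 CPM) were lowest of the pMCAO libraries in pMCAO 2. Cd3d, Cd3g, Trac and Il7r were highest there, and Il7r made up much of the sum (37.1, 45.0 and 32.0 CPM). Eosinophil markers were near 0, with Siglecf, Ccr3 and Il5ra summing to 2.26 CPM in pMCAO 2 and to between 1.40 and 4.82 CPM in the other libraries. The part of adipocyte, peritoneal, monocyte and T cell markers in the Retnla and Ear2 values was not tested.

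Close relatives could share reads with these genes, so their counts are uncertain. In GENCODE transcripts Ear2 was 96.4% identical to Ear1 over 713 aligned bases and 94.5% identical to Ear10 over 678. Ear10 had 10, 100 and 7 counts in pMCAO 1 to 3, against 48, 30, 22 and 62 counts in Sham 1 to 4, so within the pMCAO group it was high in the same library as Ear2. Retnla was 82.8% identical to Retnlg, which had 0 to 23 counts in pMCAO libraries and 0 to 19 counts in Sham libraries, while Retnla had 1176 to 13116 counts in pMCAO libraries and 2526 to 16496 counts in Sham libraries. Chil3 was 94.3% identical to Chil4, which is not analysed here.

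Chil3 and Tgm2 were higher on average after pMCAO, in the order pMCAO 1, pMCAO 2, pMCAO 3, and pMCAO 3 lay within the Sham range. Chil3 (ENSMUSG00000040809, chromosome 3, 106147554 to 106167564) encodes the secreted chitinase-like protein Ym1, which is also made by monocytes and neutrophils. It was at 211 CPM in pMCAO 1, 93.9 CPM in pMCAO 2 and 38.5 CPM in pMCAO 3, against 44.5, 12.9, 32.5 and 8.82 CPM in Sham 1 to 4. The only overlap was that of pMCAO 3 with Sham 1. The log2 change was 2.21 (SE 0.77, adjusted p = 0.304). It was positive under every setting, from 1.43 without pMCAO 1 to 3.20 with limma-voom and sample quality weights, where it passed (adjusted p = 0.00719). Those weights were 2.99 for pMCAO 1, where Chil3 was highest, against 0.40 for pMCAO 2 and 0.568 for pMCAO 3. The authors' deposited table gives 2.70 with an FDR of 0.228. Neutrophil markers summed to 29.5, 29.6 and 2.24 CPM in pMCAO 1 to 3 and to 61.5, 1.55, 4.09 and 4.59 CPM in Sham 1 to 4, over the 5 of 10 markers measured (S100a8, S100a9, Ngp, Retnlg and Cxcr2). These marker sums were highest in Sham 1, where Chil3 was also the highest of the Sham libraries, and lowest among pMCAO libraries in pMCAO 3. The part of neutrophil or monocyte RNA in the Chil3 values was not tested.

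The genes most like Chil3 over the 7 libraries were Thbs1 (root mean square difference 0.48), Clec4e (0.49) and Emp1 (0.55). Thbs1, which encodes the secreted protein thrombospondin-1, had 433, 268 and 123 CPM in pMCAO 1 to 3, against 51.5, 31.2, 104 and 25.9 CPM in Sham 1 to 4. Its pMCAO libraries stood in the same order as those of Chil3. The patterns of Chil3 and Retnla were the least alike of the 45 pairs among the 10 genes (2.07), and the ratio of Chil3 to Retnla was 2.10, 0.152 and 0.532 in pMCAO 1 to 3, against 0.0526, 0.0296, 0.255 and 0.0351 in Sham 1 to 4.

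Tgm2 (ENSMUSG00000037820, chromosome 2, 158116402 to 158146436), tissue transglutaminase, crosslinks proteins and is a marker of alternative activation that mice and humans share. It was at 54.6, 36.8 and 16.6 CPM in pMCAO 1 to 3, against 21.97, 17.5, 14.98 and 6.57 CPM in Sham 1 to 4. The library pMCAO 3 lay below Sham 1 and Sham 2 and the other pMCAO libraries above all Sham libraries. The log2 change was 1.24 (SE 0.41, adjusted p = 0.217), and 1.95 (SE 0.41, adjusted p = 0.0196) with limma-voom and sample quality weights. The largest of those weights, 2.99, was that of pMCAO 1, where Tgm2 was highest. The authors' deposited table gives 0.66 with an FDR of 0.604. Rprd1b and Gm20412, both on the other strand, overlap 8.03% and 13.7% of the exon length of Tgm2, and Gm20412 is not analysed here. Ttc39c had the pattern most like that of Tgm2 (0.21). Blood endothelial markers, a cell type in which Tgm2 is abundant, summed to 361, 275 and 285 CPM in pMCAO 1 to 3 and to 142, 241, 87.1 and 99.9 CPM in Sham 1 to 4, with all 7 of 7 measured, and their part in the Tgm2 values was not tested.

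**Figure D3:**
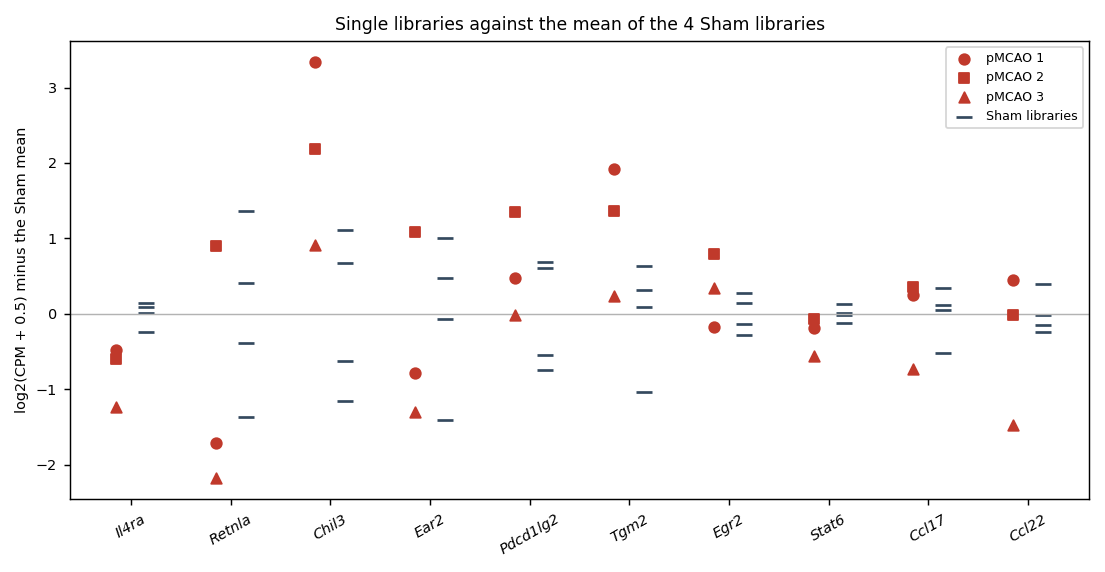
Difference of log2(CPM + 0.5) in each library from the mean of the 4 Sham libraries (vertical axis) for the 10 genes, with a circle, square and triangle for pMCAO 1, 2 and 3 and dashes for the Sham libraries. The square of pMCAO 2 stands 2.61 above the circle of pMCAO 1 for Retnla, while for Chil3 and Tgm2 the circle is on top and the triangle of pMCAO 3 at the bottom.

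Pdcd1lg2 (ENSMUSG00000016498, chromosome 19, 29410919 to 29471161) encodes PD-L2, a ligand of the checkpoint receptor PD-1 that interleukin-4 induces in macrophages. It had 17, 66 and 16 counts in pMCAO 1 to 3, against 32, 8, 35 and 17 counts in Sham 1 to 4. In CPM these were 1.45, 3.11 and 0.897 in pMCAO libraries, against 1.64, 0.344, 1.77 and 0.467 in Sham libraries. The interval for counting error in pMCAO 2, 2.40 to 3.95 CPM, lay above that of pMCAO 1, 0.846 to 2.33 CPM, and met that of Sham 3, 1.23 to 2.46 CPM. The log2 change was 0.80 (SE 0.86, adjusted p = 0.724), and 0.16 without pMCAO 2. The other PD-1 ligand, Cd274, was at 43.8, 23.5 and 18.9 CPM in pMCAO 1 to 3, against 35.5, 11.1, 21.7 and 18.2 CPM in Sham 1 to 4 (log2 change 0.41, SE 0.37, adjusted p = 0.667), and was highest in pMCAO 1, where Pdcd1lg2 was not.

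Ccl17 and Ccl22, chemokines that draw T cells bearing the receptor CCR4, lie near each other on chromosome 8 and showed no group difference. Ccl17 (ENSMUSG00000031780, 94810453 to 94812036) was at 10.2, 10.97 and 4.88 CPM in pMCAO 1 to 3, against 9.24, 5.76, 10.9 and 8.82 CPM in Sham 1 to 4 (log2 change -0.00, SE 0.40, adjusted p = 0.999). Ccl22 (ENSMUSG00000031779, 94745590 to 94751699) was at 6.24, 4.38 and 1.29 CPM in pMCAO 1 to 3, against 4.41, 3.70, 6.002 and 3.99 CPM in Sham 1 to 4. Both were lowest in pMCAO 3, where Ccl22 rested on 23 counts (counting interval 0.818 to 1.94 CPM) and lay below all other libraries. The log2 change of Ccl22 was -0.19 (SE 0.55, adjusted p = 0.909). The intervals of ± 2 SE ran from -0.79 to 0.79 for Ccl17 and from -1.29 to 0.90 for Ccl22, so changes within those ranges were not excluded. Their receptor gene Ccr4 is not analysed here. The 8 dendritic cell markers, a cell type known to make both chemokines, summed to 102 CPM in pMCAO 3, 133 and 155 CPM in pMCAO 1 and pMCAO 2, and 152 to 250 CPM in Sham libraries, and their part was not tested.

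Among the genes most like Il4ra were Lrp10 (root mean square difference 0.07) and Pdlim4 (0.08), and among those most like Stat6 were Prkcd (0.06) and Fkbp1a (0.07). Egr2 was most like Zfp664 (0.09), Plekha3 (0.10) and Riok1 (0.13), and Tgm2 most like Ttc39c, Bcas3os1 (0.27) and Inadl (0.32). Pdcd1lg2 was most like Slfn10-ps (0.27), Angptl4 (0.29) and Gm11960 (0.30), Ccl17 most like Gm26772 (0.12), 3110082I17Rik (0.15) and Vhl (0.15), and Ccl22 most like Kptn (0.20), Bet1l (0.22) and Ebp (0.22). A small difference is easier to reach for a gene that varies little, so the values do not rank the genes by how particular their matches are.

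Across the 10 genes pMCAO 3 had the lowest value of the 3 pMCAO libraries for 9 and the highest for 0, whereas over all genes it was lowest for 33.8% and highest for 32.0%. The exception was Egr2, which was lowest in pMCAO 1. The library pMCAO 2 was highest for 6 of the 10 (36.2% of all genes) and pMCAO 1 for the other 4 (31.8% of all genes). The 12 macrophage markers also summed lowest in pMCAO 3 (13441 CPM, against 17939 and 19338 CPM in pMCAO 1 and pMCAO 2). The single markers differed in this: 6 of the 12 were lowest of the pMCAO libraries in pMCAO 3, among them Lyz2, the largest part of the sum (4852 CPM, against 8125 and 9842 CPM in pMCAO 1 and pMCAO 2). Cx3cr1, Adgre1 and Ptprc were highest there. These shares describe 3 libraries of 1 group and have no test.

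**Figure D4:**
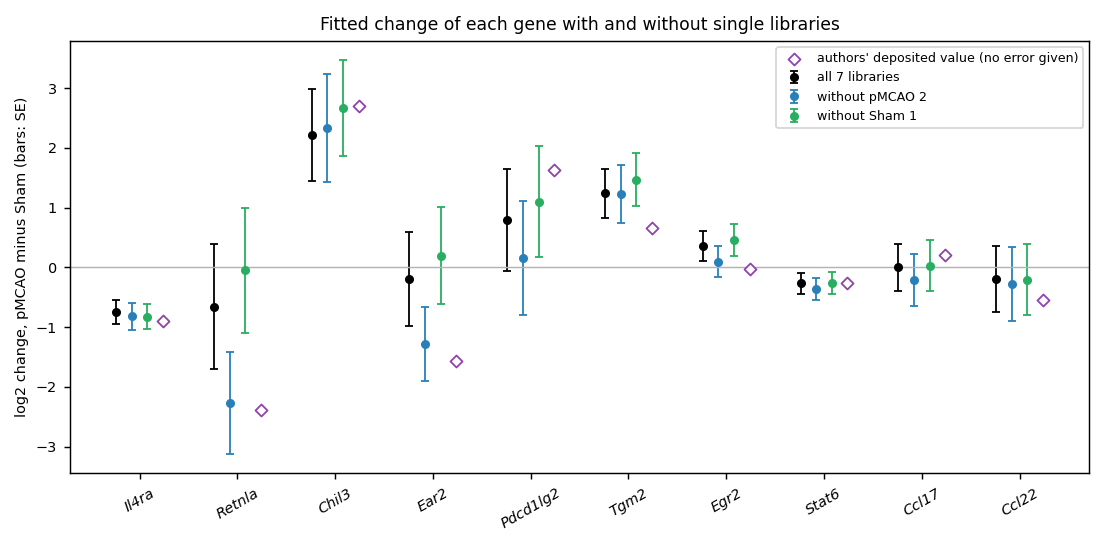
Log2 change, pMCAO minus Sham, of the 10 genes (vertical axis, bars show the SE) fitted on all 7 libraries, without pMCAO 2 and without Sham 1, beside the authors' deposited value. For Retnla the estimates run from -2.27 without pMCAO 2 to -0.05 without Sham 1, while for Il4ra the 3 fits lie between -0.82 and -0.75 and the authors' value is -0.90.

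Among 30 further genes of alternative activation 29 were measured, of which 1 fell (Mgl2) and 0 rose, against 0.0291% and 0.0697% of all genes. Their median log2 change was 0.16, against -0.02 over all genes. Mgl2, a galactose-binding lectin of alternatively activated macrophages, was at 112, 139 and 107 CPM in pMCAO 1 to 3, against 236, 313, 222 and 300 CPM in Sham 1 to 4 (log2 change -1.16, SE 0.19, adjusted p = 0.0274). It did not pass without Sham 4 (adjusted p = 0.108), without pMCAO 1 (0.208) or without pMCAO 3 (0.128). For 5 of the 29 (Clec7a, Flt1, Msr1, Klf4 and Cd36) all pMCAO libraries lay above all Sham libraries, against 5.99% of all genes. None of these 5 passed: the log2 changes were 0.80 for the beta-glucan receptor gene Clec7a (adjusted p = 0.132), 1.53 for the VEGF receptor gene Flt1 (adjusted p = 0.146), 0.60 for the scavenger receptor gene Msr1 (adjusted p = 0.151) and 0.57 for the transcription factor gene Klf4 (adjusted p = 0.192). Cd36, a fatty acid translocase gene outside the naming rule and named after its values were seen, had a log2 change of 0.64 (adjusted p = 0.220). Flt1 is also an endothelial gene, and the blood endothelial sum was higher in all pMCAO than in all Sham libraries. The part of endothelial RNA in the Flt1 values was not tested.

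Arg1 and Alox15, enzyme genes of the list, differed between single pMCAO libraries. Arg1, arginase-1, was at 101, 172 and 10.1 CPM in pMCAO 1 to 3, against 12.8, 7.87, 20.5 and 5.30 CPM in Sham 1 to 4, with a log2 change of 3.03 (SE 0.95, adjusted p = 0.272). It passed with DESeq2 (adjusted p = 0.0426), with sample quality weights (0.0271) and without pMCAO 3 (log2 change 3.57, adjusted p = 0.0377), and did not pass under the other settings, where the adjusted p reached 0.795. It was high in pMCAO 1 and pMCAO 2 and within the Sham range in pMCAO 3, as Chil3 and Tgm2 were. Alox15, a lipoxygenase that large peritoneal macrophages also express, was at 1.71, 14.8 and 2.24 CPM in pMCAO 1 to 3, against 0.880 to 2.47 CPM in Sham libraries. Mrc1, the mannose receptor, was at 5244, 3959 and 6964 CPM in pMCAO 1 to 3, against 4188, 5151, 5794 and 5809 CPM in Sham 1 to 4, and its order among the pMCAO libraries was the reverse of that of Retnla. Arg1 and Alox15 were chosen for this paragraph after their values were seen, as was Mrc1.

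**Figure D5:**
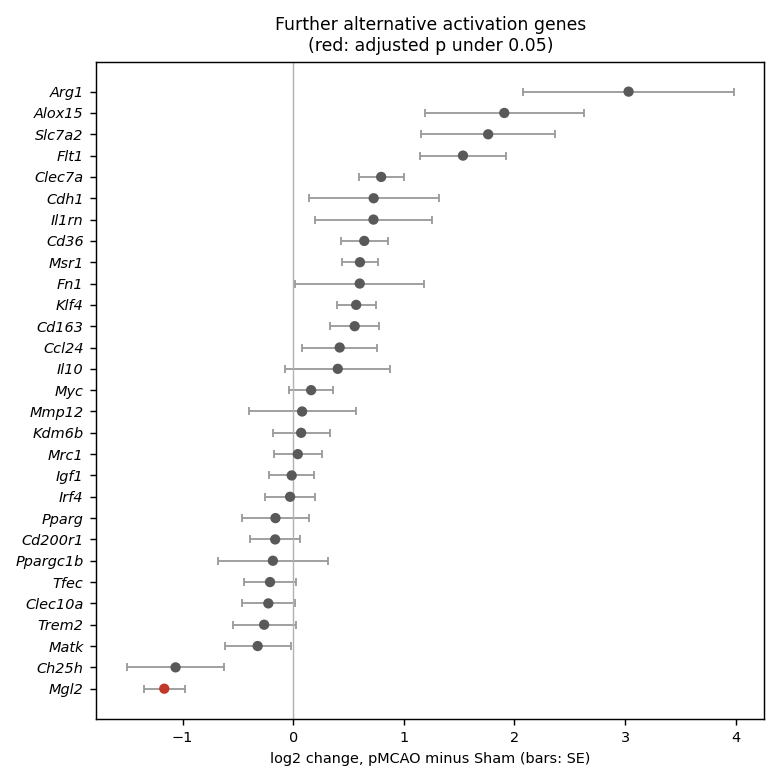
Log2 change, pMCAO minus Sham (horizontal axis, bars show the SE), of 29 further genes of alternative activation, ordered by size. Mgl2, in red at -1.16, is the only one with an adjusted p under 0.05.

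Of 20 partners and near relatives of the 10 genes 12 were measured and 0 passed, against 0.0988% of all genes. Their median log2 change was 0.22, against -0.02 over all genes. F13a1, a transglutaminase like Tgm2 and the coagulation factor XIII subunit that macrophages make, was at 1902, 1364 and 1738 CPM in pMCAO 1 to 3, against 978, 872, 1265 and 1044 CPM in Sham 1 to 4 (log2 change 0.68, SE 0.19, adjusted p = 0.152). It was the 1 gene of the 12 that lay above all Sham libraries, against 5.99% of all genes. Below all Sham libraries lay 0 of the 12, against 6.58% of all genes. Tgm1, the keratinocyte transglutaminase, had a log2 change of -0.98 (SE 0.49, adjusted p = 0.398), and the costimulatory gene Cd86 one of 0.35 (SE 0.18, adjusted p = 0.411). Nab1, a corepressor of EGR factors, had one of 0.30 (SE 0.19, adjusted p = 0.517). Ccr4, Pdcd1, Retn, Retnlb, Chit1, Ear1, Ear6 and Ear14 are not analysed here.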

How the data were processed

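The values came from a single deposited table of 7 libraries. Libraries were made from 2.0 ng of total RNA with a Trio kit and removal of ribosomal RNA, and read in pairs of 100 bases, per the labels' protocols. The read counts per gene were made by the authors, with STAR, featureCounts and limma and the builds GRCm38 and mm10 named per the submitters' processing notes; for versions and the strand setting, the sources used here give nothing. The deposited CPM values equal the count over the library total to within 0.0005. The log2 fold changes, mean log2 expression, p-values and FDR of the deposited table are the authors'. The table lists genes above 0.5 CPM in at least 4 libraries, so a gene expressed in pMCAO libraries alone would not be listed.

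Counts were tested with the edgeR 4.0.16 quasi-likelihood F test (R 4.3.3, robust, two-sided, TMM factors, expression filter, which kept 17209 genes, group as the only term), with Benjamini-Hochberg adjustment over all genes and a threshold of 0.05. The SE is the log2 change over the square root of F. The biological coefficient of variation was 43.6%. CPM in the text are TMM-scaled, and counting intervals cover counting error only, since the protocols name no molecular identifiers. A count of 3 was 0.0825 to 0.256 CPM. The script was tested on simulated data. Patterns were compared as log2(CPM + 0.5) centred on each gene's mean, over genes of at least 5 CPM. Positions and exon lengths are from GENCODE M21 (GRCm38), which holds 99.5% of the identifiers; promoters are from RefSeq (GRCm38.p6) and 9 of the 10 genes matched (all but Tgm2). Transcripts were aligned with Biopython 1.88. Protein comparisons that had been planned were replaced by transcript comparisons.

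The 10 genes, the lists and the alternatives were chosen with earlier results of these data known. From each list the genes past the threshold and the 5 with the smallest p are named, and for each of the 10 up to 3 genes of the most similar pattern, of which some are not reported here; further genes are marked as chosen after their values were seen, and Jak3, Il4, Ear10, Retnlg, Fabp4 and other markers are given beside the results they touch. Alternatives were other scaling, filters, DESeq2 1.42.0, limma 3.58.1 (voom, with and without sample quality weights), thinning, a replicate block and leaving out each library.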

Additional observations from a re-analysis of the deposited data

How the results depend on the processing

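None of the 10 genes passed with edgeR under any scaling, filter, thinning, block or left-out library tried, but 1 passed with DESeq2 (Il4ra, -0.73) and 3 with limma-voom and sample quality weights (Il4ra, -0.68; Chil3, 3.20; Tgm2, 1.95). Those weights were 2.99 for pMCAO 1, 0.40 for pMCAO 2 and 0.568 for pMCAO 3, against 0.568, 0.89, 1.67 and 1.75 for Sham 1 to 4. The direction of Il4ra, Retnla, Chil3, Pdcd1lg2, Tgm2, Egr2 and Stat6 held under every alternative that gave a value. With libraries left out in turn the log2 change ran from -0.90 to -0.55 for Il4ra, from -2.27 to -0.05 for Retnla, from 1.43 to 2.66 for Chil3, from 0.81 to 1.59 for Tgm2, from -1.28 to 0.20 for Ear2, from -0.21 to 0.29 for Ccl17 and from -0.67 to 0.23 for Ccl22. Ear2 turned without Sham 1 (0.20), pMCAO 1 (0.10) or pMCAO 3 (0.19). Ccl22 turned with quality weights (0.0080) and without pMCAO 3 (0.23). Ccl17, at -0.00, turned with DESeq2 size factors (0.013), upper-quartile factors (0.017), genes of at least 5 CPM (0.0057), DESeq2 (0.013), quality weights (0.046), thinning (0.057) and without Sham 1 (0.03), Sham 3 (0.13), Sham 4 (0.0068) or pMCAO 3 (0.29). The causes were not tested. Over genes of at least 5 CPM Ccl22 and Pdcd1lg2 were not tested. Of all genes, 17 passed, against 34 with upper-quartile factors, 29 without scaling factors, 75 over genes of at least 5 CPM, 476 with DESeq2, 35 with limma-voom, 818 with quality weights and 38 after thinning. With libraries left out the count ran from 0 (without pMCAO 1, edgeR, with 1987 genes at unadjusted p under 0.05) to 100 (without pMCAO 2).

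The labels number the replicates and state no pairing. Same-numbered libraries had correlations of deviations of -0.10, 0.01 and 0.18, and of the pMCAO libraries pMCAO 3 alone correlated best with its own number. With so few libraries these values cannot settle whether samples were paired. With the replicate number as a block 21 genes passed and 0 of the 10, with log2 changes of -0.73 for Il4ra, -1.09 for Retnla, 1.81 for Chil3 and 0.85 for Tgm2. Depth limits Pdcd1lg2 and Ccl22, which rest on 8 to 145 counts in a library. Of the 29 further alternative activation genes 1 passed, against 5 with DESeq2 and 8 with quality weights. Those settings also called more of all genes, 476 with DESeq2 and 818 with quality weights, against 17 in the main fit.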

Other observations

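The ratio of Il4ra to Stat6 within a library, which does not depend on scaling between libraries, was 0.997, 0.840 and 0.757 in pMCAO 1 to 3, against 1.02, 1.33, 1.31 and 1.23 in Sham 1 to 4. It averaged 0.865 ± 0.121 in pMCAO libraries and 1.22 ± 0.141 in Sham libraries (SD, n = 3 and n = 4). The groups did not overlap. A two-sided exact permutation test of the difference in means over 35 arrangements gave p = 0.0571, the smallest p it could give. The ratio was formed after the values of both genes were seen, so this p-value is a description only.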
